A study of Mus musculus with 6 samples.

Results

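Mitochondrial ribosomal protein genes were examined in cultures of oligodendrocyte progenitor cells (OPCs) from mice, which divide and then mature into the oligodendrocytes that make myelin. Members were taken by symbol, as every listed gene named Mrpl or Mrps followed by a number and at most 1 letter. The rule found 77 of 24421 listed genes and used no measured value. Of these, 48 Mrpl genes are named for the large subunit and 29 Mrps genes for the small subunit. RNA-seq counts were available for 6 libraries in 2 groups of 3. The control group carried floxed Prrc2b alleles and no Cre (Prrc2bf/f), and the knockout group carried the same alleles with Olig2-Cre (Prrc2bf/f; Olig2-Cre). All animals were C57BL/6J pups at postnatal day 4, and cells of the cortex were selected by panning on GalC and then on O4 before culture in a medium that keeps them dividing. The series' design text speaks of brain tissue in place of cultured cells. Olig2-Cre acts in cells that express Olig2 or descend from such cells, which need not all be of the oligodendrocyte lineage. No group carried the Cre without the floxed alleles, so an effect of the Cre and an effect of the loss of Prrc2b cannot be told apart. The labels do not say whether the replicates came from separate animals or cultures, so p-values measure the spread between these libraries, which may be technical.

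The mitochondrial ribosome makes the few proteins that the mitochondrial genome still encodes, all of them subunits of the respiratory chain and the ATP synthase. Its RNAs come from the mitochondrial genome, but all of its proteins are encoded in the nucleus, made in the cytosol and imported. Part of them descend from proteins of the bacterial ribosome and part were added in the mitochondrial lineage. Their genes are spread over the genome and expressed in nearly every cell type, and the factors NRF1, GABP (an ETS family factor) and YY1 are known to bind the promoters of many nuclear genes for mitochondrial proteins. MRPS18A and MRPS30 are named as small subunit proteins but sit in the large subunit. Every member was counted here by symbol, and the place of each product was not checked.

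The 77 genes lay on 17 chromosomes. Promoter sequences of RefSeq (GRCm38.p6, 250 bases before to 50 after an annotated start) were available for 68 of the 77. The NRF1 motif, the 10 letters in capitals in Mrpl44 and Mrpl45 below with any base at the sixth, was present in 19.1% of the members' windows, against 9.15% of 11942 windows of tested genes and 4.78% of all 27025 windows. The ETS motif CCGGAAG was present in 35.3%, against 15.8% and 9.12%. The YY1 motif, whose core is ATGGCGG, was present in 10.3%, against 2.88% and 1.44%. A CCAAT box (CCAAT) was about as frequent among members as elsewhere, at 39.7%, 38.2% and 37.9%. Both strands were searched. At least 1 of the first 3 motifs was found in 37 of the 68 members' windows (54.4%), against 25.1% for tested genes. The share with at least 1 of the 3 was alike in large subunit (54.8% of 42 windows) and small subunit genes (53.8% of 26). The single motifs were less alike. In large and small subunit windows, NRF1 was in 23.8% and 11.5%, ETS in 31.0% and 42.3% and YY1 in 7.14% and 15.4%. These shares rest on few windows and were not tested. A match describes the letters of the sequence and does not show that a factor binds there.

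The 120 bases before the annotated start are shown for 5 genes, chosen to show the ETS motif, the NRF1 motif and a window without either beside the expression values that follow. Capitals mark a motif, and the strand of the gene is read 5′ to 3′. Mrpl52 (chr14:54426789-54426908, plus strand) and Mrpl34 (chr8:71464806-71464925, plus strand) hold the ETS motif, in Mrpl52 as its reverse complement. Mrpl44 (chr1:79775898-79776017, plus strand) holds the NRF1 motif and Mrpl45 (chr11:97315596-97315715, plus strand) holds it at 2 places. Mrps24 (chr11:5707702-5707821, minus strand) holds none of the 4. Its RefSeq start lies inside the gene as annotated by GENCODE (5703983 to 5715680), and the sequence before the outer start was not searched.
Mrpl52: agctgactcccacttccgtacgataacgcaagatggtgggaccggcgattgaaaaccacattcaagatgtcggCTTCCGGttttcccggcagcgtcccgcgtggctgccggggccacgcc
Mrpl34: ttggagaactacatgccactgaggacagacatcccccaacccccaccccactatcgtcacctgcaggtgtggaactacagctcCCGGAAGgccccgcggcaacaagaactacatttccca
Mrpl44: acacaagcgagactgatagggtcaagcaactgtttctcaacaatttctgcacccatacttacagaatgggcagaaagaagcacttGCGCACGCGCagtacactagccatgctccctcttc
Mrpl45: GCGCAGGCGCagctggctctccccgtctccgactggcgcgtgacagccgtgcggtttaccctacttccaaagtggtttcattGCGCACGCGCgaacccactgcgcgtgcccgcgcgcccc
Mrps24: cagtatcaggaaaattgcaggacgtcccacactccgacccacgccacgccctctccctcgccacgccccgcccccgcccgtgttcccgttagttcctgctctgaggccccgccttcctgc

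Each library held between 26015604 and 28114968 counts in genes, and 15906 genes passed the filter on low counts, among them all 77 members. The lowest count of any member in any library was 162. Prrc2b, the targeted gene, stood at 928, 1080 and 931 CPM (counts scaled to each library's total) in control libraries 1 to 3 and at 653, 826 and 771 CPM in knockout libraries 1 to 3. Libraries with the same number resembled each other across the groups. Each library's departure from its group mean, as log2 CPM, correlated across genes at 0.802, 0.774 and 0.751 in the 3 same-numbered pairs. The other combinations were at -0.44 to -0.30. Departures within a group cancel, so positive values in the same-numbered pairs force the others down, and these are no separate evidence. The numbers were therefore taken to pair the libraries, and each test is given with the group alone and with the replicate number as a block. Adjusted p-values by edgeR come from its quasi-likelihood test, with Benjamini-Hochberg adjustment over all tested genes. The spread that edgeR estimated between libraries (biological coefficient of variation) was 0.315 for the group alone and 0.104 with the block. With the block Prrc2b fell by 0.41 in log2 units (SE 0.06, adjusted p = 0.00688 by edgeR), and with the group alone its log2 fold change was -0.41 (SE 0.13, adjusted p = 1.00 by edgeR).

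The cultures held transcripts of several cell types besides OPCs. No marker of the 8 cell types looked for was at 0 over the 6 libraries together, and the summed OPC markers ranged from 2001 to 3528 CPM in control and from 2126 to 4307 CPM in knockout libraries. They were higher in all 3 pairs, and 0 of the 6 OPC markers were called with the block. Neuronal markers summed to 1852 to 2533 CPM in control and 1576 to 2489 CPM in knockout libraries and were lower in all 3 pairs. Astrocyte markers (810 to 1590 against 979 to 1914 CPM), endothelial markers (12.98 to 70.6 against 33.0 to 234 CPM) and ependymal and choroid plexus markers (333 to 1841 against 792 to 2733 CPM) were higher in all 3 pairs, as were pericyte and fibroblast markers (81.0 to 508 against 109 to 778 CPM). With the block, all 5 endothelial, 3 of 5 astrocyte, 3 of 4 ependymal and choroid plexus and 2 of 6 pericyte and fibroblast markers were called higher. Of 6 neuronal markers 1 was called, and it was lower. There edgeR called 2.23% of all tested genes lower and 1.57% higher. Oligodendrocyte markers (195 to 814 against 240 to 644 CPM) and microglia markers (8.26 to 155 against 7.88 to 158 CPM) were higher in 2 pairs. Of these, 0 of 5 were called in each type. The part of cell composition in the values below was not tested, and fewer cells of a type cannot be told apart from less RNA per cell.

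Each mitochondrial ribosomal protein gene was moderately expressed in every library, with means over the 6 libraries from 7.68 to 58.1 CPM. The 77 genes together held 0.170% of gene counts. Levels were ranked between genes as CPM per kb of exonic length, which takes in all annotated exons of a gene. Among large subunit genes Mrpl52, a protein with no bacterial homologue, was highest in control libraries at 48.3 ± 3.25 CPM per kb (SD, n = 3), and its libraries did not overlap those of the next gene. Mrpl30, the homologue of bacterial L30, followed at 37.2 ± 5.78 CPM per kb and Mrpl42, another mitochondrial addition, at 37.0 ± 1.48 CPM per kb, and these overlapped. The lowest were Mrpl35, Mrpl47 and Mrpl17 at 4.11, 4.04 and 3.39 CPM per kb. The highest level was 14.3 times the lowest, but this ratio rests largely on the divisor. The exonic length was 491 bases for Mrpl52 and 7605 for Mrpl17. Before division Mrpl17 averaged 25.7 CPM over the controls, close to the level of Mrpl52 given below.

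Among small subunit genes Mrps21, the homologue of bacterial S21, was highest in control libraries at 35.3 ± 3.72 CPM per kb (SD, n = 3). Mrps7, the homologue of the assembly protein S7, followed at 22.3 CPM per kb, and Mrps34, a mitochondrial addition needed for a stable small subunit, at 22.0 CPM per kb. Mrps16, Mrps35 and Mrps25 were lowest at 3.87, 3.59 and 2.46 CPM per kb, and the highest level was 14.4 times the lowest. The exonic length was 492 bases for Mrps21 and 6073 for Mrps25, so this ratio too rests largely on the divisor. Neighbours in these orders were mostly not separated: control libraries overlapped for 43 of 47 neighbouring pairs in the large and 23 of 28 in the small subunit. The order changed little in knockout libraries. Only 4 large and 3 small subunit genes moved by more than 3 ranks, among them Mrps34 from rank 3 to 10, Mrps24 from 7 to 13 and Mrpl33 from 15 to 8.

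**Figure D1:**
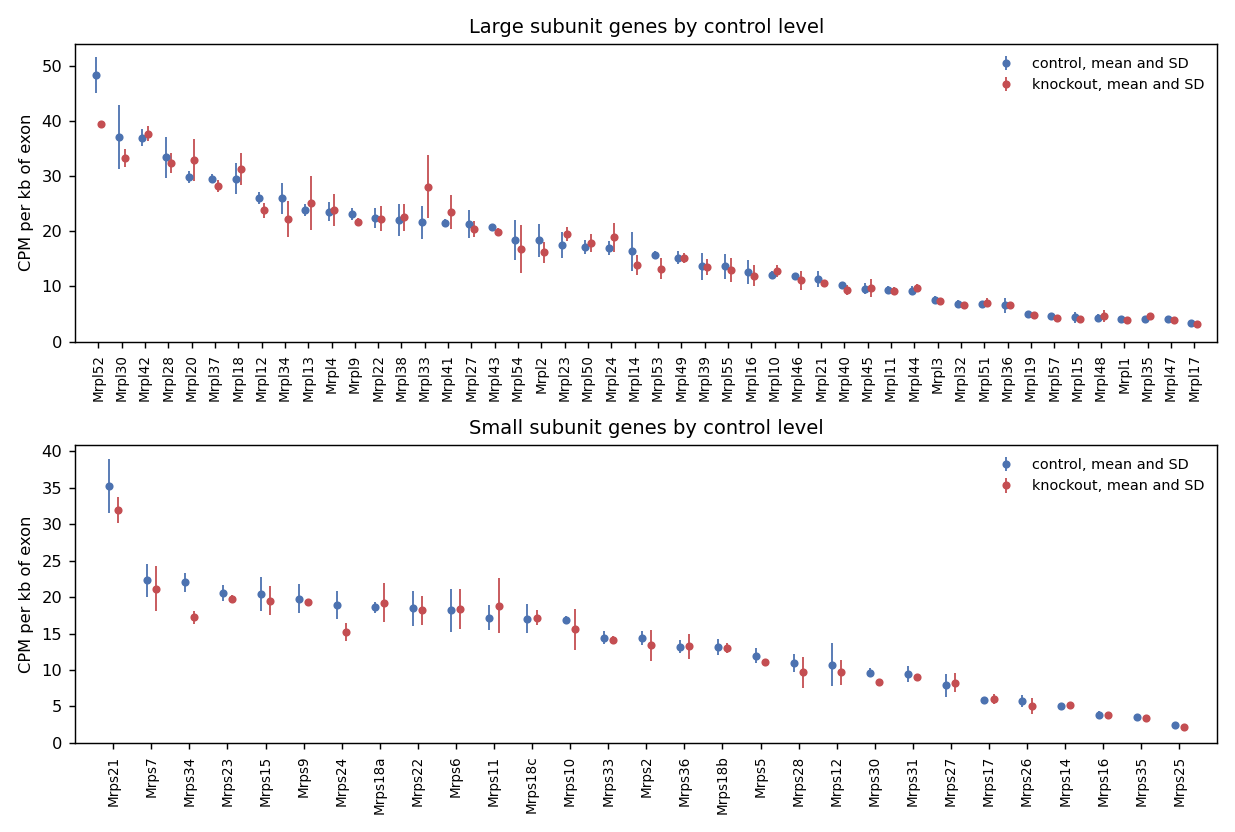
Level of each gene as CPM per kb of exonic length on the vertical axis, ordered by the control mean, for 48 large and 29 small subunit genes; points are means and bars SD over 3 control or 3 knockout libraries. Most neighbouring genes overlap, and Mrpl52 and Mrps21 stand at the top in both groups.

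The summed output of the large subunit genes was nearly the same in both groups. It was 1141, 1102 and 1082 CPM in control libraries 1 to 3 and 1137, 1085 and 1057 CPM in knockout libraries 1 to 3. The means were 1108 ± 30.0 and 1093 ± 40.5 CPM (SD, n = 3), a ratio of 0.986, and the groups overlapped. Within the same-numbered pairs the sum differed by -0.348%, -1.57% and -2.30%. The ratio reached 1.00 when control library 1 or knockout library 3 was left out.

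The summed output of the small subunit genes was 636, 605 and 595 CPM in control libraries and 615, 582 and 548 CPM in knockout libraries. The means were 612 ± 21.5 and 581 ± 33.7 CPM (SD, n = 3), a ratio of 0.950. Knockout library 1 lay above 2 of the control libraries, so the groups overlapped, while within the pairs the sum was lower by values of -3.34%, -3.85% and -7.98%. In both subunits the order of the libraries was the same in the 2 groups, with library 1 highest and library 3 lowest.

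**Figure D2:**
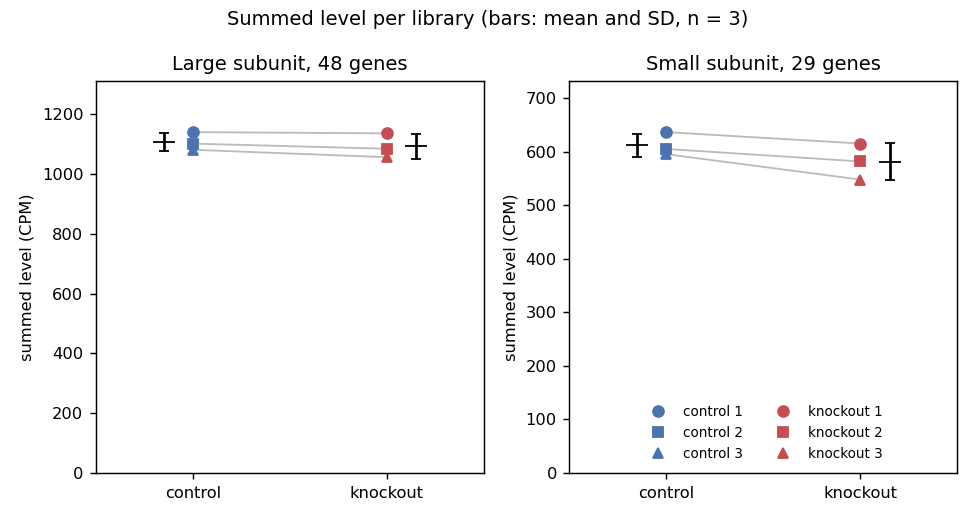
Summed CPM of the 48 large subunit genes (left) and the 29 small subunit genes (right) in each library; grey lines join libraries of the same number, and bars give the mean and SD of 3 libraries. The large subunit sums lie between 1057 and 1141 CPM. In both panels the groups overlap and each line slopes down from control to knockout, by a smaller percentage in the large subunit.

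No mitochondrial ribosomal protein gene passed the test. With the group alone, edgeR called 0 of 77 lower and 0 of 77 higher, where it called 0% of the 15906 tested genes. At an unadjusted p under 0.05, 2 members were lower (Mrps34 and Mrpl52) and 0 higher, against 0.962% and 0.761% of all tested genes. With the replicate block edgeR again called 0 of 77 in either direction, while it called 2.23% of tested genes lower (354 genes) and 1.57% higher (250 genes). At an unadjusted p under 0.05 the block gave 4 lower members (Mrps34, Mrpl52, Mrps24 and Mrps30) and 1 higher (Mrpl33), against 9.5% and 8.69% of all tested genes. DESeq2 and limma-voom called 0 members too, with and without the block. With the group alone DESeq2 called 0.0629% of tested genes lower and 0.0629% higher, and limma-voom 0%. With the block DESeq2 called 2.4% of tested genes lower and 1.87% higher, and limma-voom 2.62% and 1.85%.

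The intervals bound the size of these changes. With the block the 95% interval of the fold change lay within 1.5-fold in either direction for 47 of 48 large and 27 of 29 small subunit genes, against 69.6% of all tested genes. Intervals narrow with the count level. Among 2165 tested genes in the members' middle range of level the share was 90.9%, and among cytosolic ribosomal protein and respiratory chain genes it was 95.1% and 93.1%. Mrpl33, Mrps34 and Mrps28 were the exceptions. Without the block 63 of the 77 intervals lay within 1.5-fold, and all 77 lay within 2-fold in both fits.

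The fitted changes were small, with medians slightly below 0. The median log2 fold change with the block was -0.07 over large subunit genes, with 32 of 48 below 0, and -0.08 over small subunit genes, with 24 of 29 below 0. Over all tested genes the median was 0.00, and 49.4% lay below 0. Members ranged from -0.38 (Mrps34) to 0.34 (Mrpl33). The medians stayed below 0 in every scaling and with each library left out, but their size moved. The blocked large subunit median was -0.041 with library totals, and with the group alone it went from -0.069 to -0.032 without control library 1. The small subunit median with the group alone went from -0.090 to -0.053 without knockout library 3. In plain CPM, 24 of the 77 members were lower in all 3 same-numbered pairs (15 large, 9 small), against 16% of tested genes, and 8 were higher in all 3, all of them large subunit genes, against 23.9%. Values of genes within a library share its depth and scaling, so these counts describe the list and are no test of it.

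**Figure D3:**
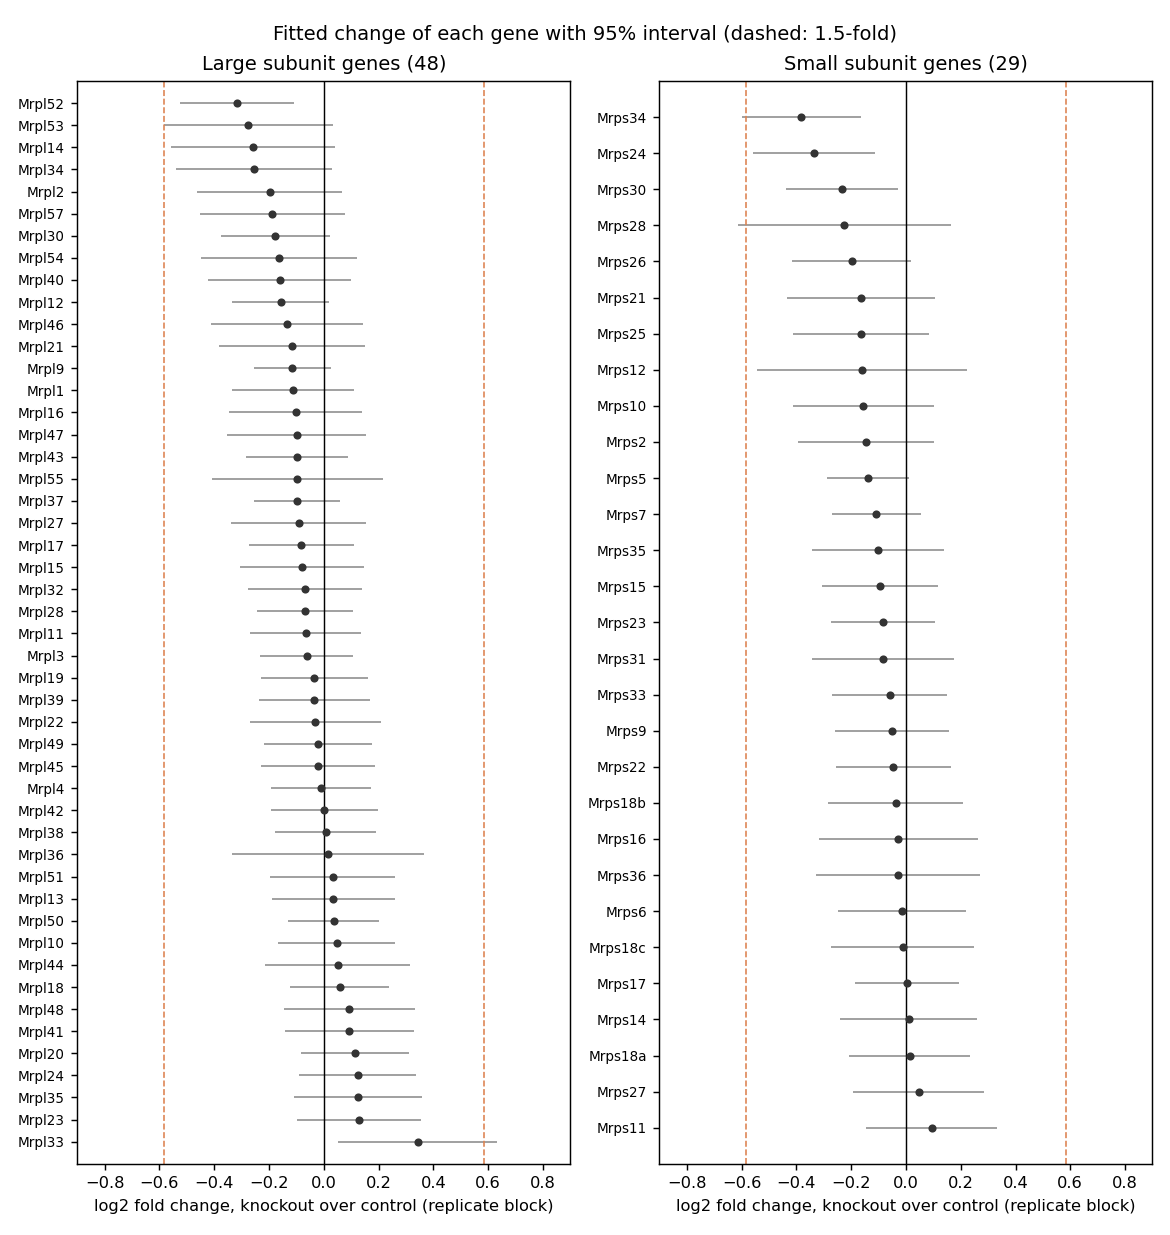
Fitted log2 fold change of each gene, knockout over control with the replicate block, for large (left) and small (right) subunit genes; points are estimates, bars 95% intervals, and dashed lines mark a 1.5-fold difference in either direction. Of the 77 intervals 74 lie between the dashed lines, and Mrps34, Mrpl52, Mrps24 and Mrps30 lie wholly below 0 and Mrpl33 wholly above it.

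Among small subunit genes Mrps34 had the smallest p. It lies on chromosome 17 from 24895116 to 24897502 (GRCm38, plus strand). Its level was 20.8, 18.8 and 20.99 CPM in control libraries 1 to 3 and 16.6, 15.0 and 15.8 CPM in knockout libraries 1 to 3. Every knockout library lay below every control library. The log2 fold change was -0.38 (SE 0.10, 95% interval -0.60 to -0.16) with the block, with an adjusted p of 0.0663 by edgeR, and -0.38 (SE 0.15, adjusted p = 1.00 by edgeR) without it. Blocked adjusted p was 0.126 with DESeq2 and 0.0599 with limma-voom, and 0.0438 with edgeR when no filter on low counts was applied, the only setting that called a member (background 2.76% of 20148 genes lower). A correction for GC content, which is 59.9% over the exons of this gene, moved the blocked value to -0.24 with an adjusted p of 0.249 by edgeR. The coding gene Eme2 starts 29 bases away on the other strand, and its blocked log2 fold change was -0.12 (adjusted p = 0.713 by edgeR).

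Mrps24, the homologue of bacterial S3 near the entry of the mRNA channel, was also lower. It lies on chromosome 11 from 5703983 to 5715680 (GRCm38, minus strand) and stood at 20.8, 16.9 and 18.8 CPM in control and 16.6, 14.2 and 14.8 CPM in knockout libraries. Its highest knockout library was just below its lowest control library. The blocked log2 fold change was -0.34 (SE 0.10, adjusted p = 0.106 by edgeR).

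Mrps30, on chromosome 13 from 118378381 to 118387252 (GRCm38, minus strand), encodes one of the proteins that sit in the large subunit in spite of the name. It stood at 30.1, 34.0 and 31.8 CPM in control and 29.2, 27.05 and 26.8 CPM in knockout libraries. The groups did not overlap, but pair 1 differed by less than 1 CPM. The blocked log2 fold change was -0.23 (SE 0.09, adjusted p = 0.214 by edgeR).

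The next small subunit genes by p had overlapping groups. Mrps5, the homologue of bacterial S5, which bears on decoding accuracy, stood at 50.7, 58.8 and 51.2 CPM in control and 49.6, 51.8 and 47.2 CPM in knockout libraries, a blocked log2 fold change of -0.14. Mrps26, a mitochondrial addition, stood at 28.7, 21.4 and 23.4 against 27.1, 20.3 and 18.1 CPM, a blocked value of -0.20, which was -0.10 without the libraries numbered 3. Both were lower in all 3 pairs. Mrps7, Mrps25 and Mrps21 had blocked values of -0.11, -0.16 and -0.16 and adjusted p by edgeR of 0.490, 0.501 and 0.531. Without the libraries numbered 2, Mrps7 was at -0.07 and Mrps21 at -0.07, and without those numbered 1 Mrps21 was at -0.30.

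The trio Mrps18a, Mrps18b and Mrps18c, which all descend from bacterial S18 and whose products take different places in the ribosome, was near 0. Mrps18a stood at 18.4, 19.9 and 19.5 CPM in control and 17.1, 22.7 and 20.0 CPM in knockout libraries. Mrps18b stood at 15.1, 14.7 and 12.8 against 14.3, 14.6 and 13.3 CPM, and Mrps18c at 18.04, 14.4 and 15.7 against 15.9, 17.3 and 15.3 CPM. The groups overlapped for all 3 genes. Their blocked log2 fold changes were 0.01, -0.04 and -0.01, with 95% intervals of -0.21 to 0.23, -0.28 to 0.21 and -0.27 to 0.25. The sign of each turned in some settings.

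Among large subunit genes Mrpl52 had the smallest p. It lies on chromosome 14 from 54426909 to 54429756 (GRCm38, plus strand), directly behind the promoter stretch shown above. It stood at 25.5, 22.3 and 23.4 CPM in control and 19.2, 19.6 and 19.3 CPM in knockout libraries. The 3 knockout libraries lay within 0.464 CPM of each other and below all controls. The log2 fold change was -0.32 (SE 0.09, 95% interval -0.53 to -0.11) with the block, with an adjusted p of 0.102 by edgeR, and -0.32 (adjusted p = 1.00 by edgeR) without it. In spite of this it kept the first rank per length among large subunit genes, at 39.4 ± 0.499 CPM per kb (SD, n = 3).

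Another 3 large subunit genes had no overlap between the groups and lower knockout values. Mrpl12, the homologue of the stalk protein that recruits translation factors, lies on chromosome 11 from 120484613 to 120489065 (GRCm38, plus strand). It stood at 34.2, 35.7 and 33.0 CPM in control and 32.6, 32.1 and 29.4 CPM in knockout libraries, a blocked log2 fold change of -0.16 (SE 0.08, adjusted p = 0.339 by edgeR). Mrpl53, a mitochondrial addition on chromosome 6 from 83109040 to 83109939 (GRCm38, plus strand), stood at 10.5, 11.4 and 10.7 against 10.0, 9.88 and 7.65 CPM, a blocked value of -0.28. Knockout library 3 was the lowest, and over the settings with the block the value ranged from -0.37 to -0.16. Mrpl43, another addition, on chromosome 19 from 45004829 to 45006442 (GRCm38, minus strand), stood at 28.9, 29.7 and 28.7 against 28.2, 28.3 and 26.5 CPM, a blocked value of -0.10.

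Mrpl33, the homologue of bacterial L33, was the only member whose knockout libraries all lay above its control libraries. It lies on chromosome 5 from 31596935 to 31664384 (GRCm38, plus strand) and stood at 10.9, 8.71 and 11.5 CPM in control and 12.02, 11.7 and 16.6 CPM in knockout libraries. Knockout library 3 was well above the other two. The blocked log2 fold change was 0.34 (SE 0.13, 95% interval 0.05 to 0.63) with an adjusted p of 0.196 by edgeR, and over the settings with the block it ranged from 0.25 to 0.46. In all, 7 of 77 members had every knockout library below every control library, against 2.8% of tested genes, and 1 of 77 had every one above, against 3.31%.

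**Figure D4:**
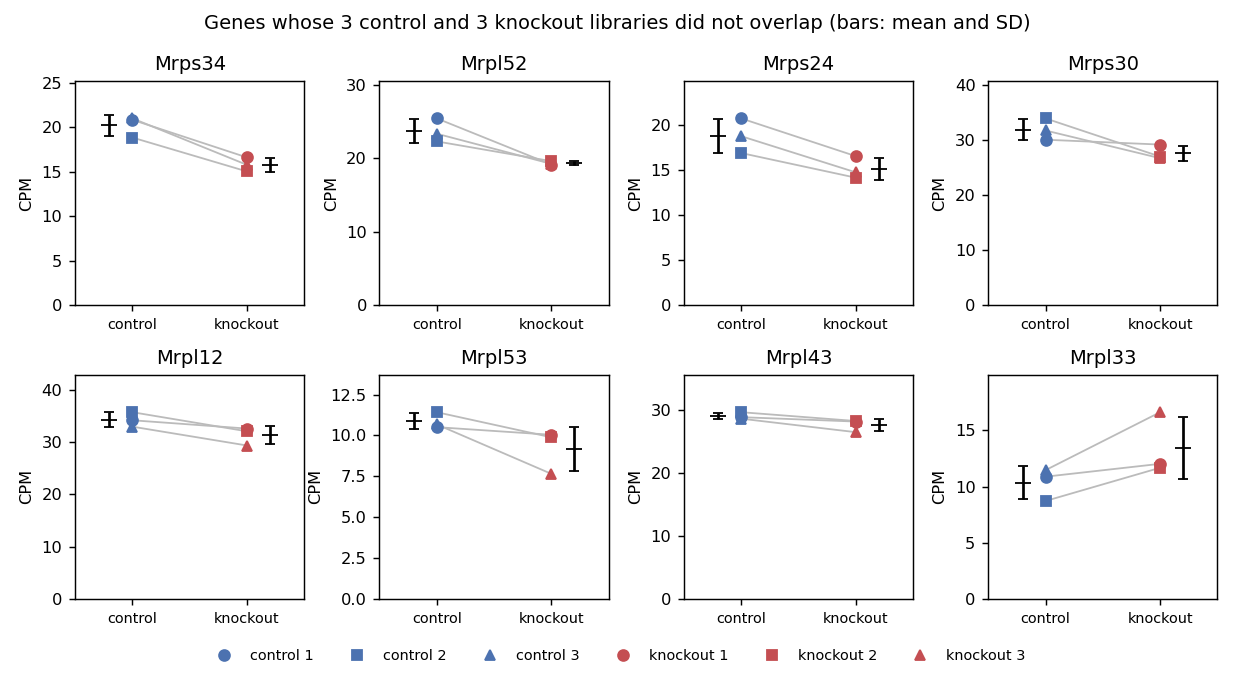
CPM of the 8 genes whose control and knockout libraries did not overlap, on axes that start at 0; grey lines join libraries of the same number, and bars give the mean and SD of 3 libraries. Mrpl33 alone is higher in knockout libraries, and the gaps between the groups are small beside the levels.

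Of the other large subunit genes, Mrpl34, the homologue of bacterial L34 with the ETS motif shown above, stood at 16.1, 17.3 and 13.9 CPM in control and 11.3, 15.1 and 13.99 CPM in knockout libraries. The groups overlapped, and the blocked log2 fold change was -0.26 (SE 0.13, adjusted p = 0.334 by edgeR). It was -0.12 without the libraries numbered 1 and -0.38 without those numbered 3. Mrpl14, whose bacterial homologue L14 lies at the face where the subunits join, stood at 10.4, 12.9 and 8.32 against 8.87, 10.1 and 7.76 CPM, a blocked value of -0.26. Mrpl9, among the members with the most counts, stood at 62.8, 60.0 and 56.9 against 58.1, 54.2 and 56.7 CPM, a blocked value of -0.11. Mrpl30, second by level per length, stood at 30.7, 41.9 and 35.8 against 30.6, 33.8 and 32.7 CPM, a blocked value of -0.18, which was -0.09 without the libraries numbered 2. Mrpl44 and Mrpl45, whose promoters hold the NRF1 motif, had blocked values of 0.05 and -0.02. Over all 13 members with that motif in their window, values ran from -0.26 (Mrpl14) to 0.05 (Mrpl44). Over the 24 members with the ETS motif they ran from -0.32 (Mrpl52) to 0.34 (Mrpl33). The genes with and without a match were not compared by a test.

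Members with and without a bacterial ancestor had similar medians. The blocked median was -0.07 over 48 members with a bacterial homologue, 35 of them below 0, and -0.08 over 29 members without one, 21 of them below 0. Across the 77 genes the blocked log2 fold change had a Spearman correlation of 0.127 with exonic length, -0.24 with GC content and 0.166 with mean CPM. These are descriptions over genes that share the same 6 libraries. The 39 genes of higher GC content had a median of -0.10 and the other 38 one of -0.06. Split by mean CPM, the 39 higher genes had a median of -0.06 and the other 38 one of -0.10. Split by exonic length, the 39 longer genes had -0.07 and the other 38 had -0.09.

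The members varied little between libraries. Their median coefficient of variation was 9.51% over control and 9.29% over knockout libraries, against 17.4% and 17.2% over all tested genes. The library with the highest CPM had the same number in both groups for 45 of 77 members (58.4%), against 68.7% of all tested genes. It was number 1 in both groups for 23 members, number 2 for 16 and number 3 for 6.

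Part of the genes share sequence with a neighbour. For 17 of the 77, exons overlapped those of another listed gene, on the other strand for 15 and on the same strand for 2. Besides, 3 members (Mrpl23, Mrpl48 and Mrps36) have named pseudogenes in the GENCODE annotation. The library kit marks strand, but whether the counting used strand is not known here, so the counts of the 17 overlapping genes are uncertain. Their blocked median was -0.02, against -0.08 for the 60 genes without an overlap. None of the 8 genes with separated groups has such an overlap. A head-to-head coding neighbour starting within 1000 bases was found for 23 members (29.9%), against 11.6% of 14502 tested coding genes. Examples are Mrpl49 with Fau, which encodes a protein of the cytosolic small subunit, and Mrps12 with Sars2, the mitochondrial seryl-tRNA synthetase. Of the 23 neighbours, 0 passed the test with the block, where edgeR called 2.23% of all tested genes lower and 1.57% higher.

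Other genes of mitochondrial translation, from lists of their roles, were examined beside the members. Of 81 tested genes, edgeR with the block called 0 lower and 1 higher, against 2.23% and 1.57% of all tested genes. Without the block it called 0 in either direction, where it called 0% of all tested genes. At an unadjusted p under 0.05 the block gave 8 lower and 2 higher of the 81, against 9.5% and 8.69% of all tested genes. Their median was -0.03, with 48 below 0. Proteins of the mitochondrial ribosome without an Mrp symbol numbered 6, with a median of -0.03; among them Dap3, a GTP-binding protein of the small subunit, had a blocked value of -0.03, and Aurkaip1, another small subunit protein, a value of -0.21 (adjusted p = 0.237 by edgeR). Assembly and ribosomal RNA factors numbered 24 tested, with a median of -0.07. Mtg1, a GTPase that acts late in assembly of the large subunit, stood at 10.5, 9.31 and 10.2 CPM in control and 6.96, 8.10 and 8.73 CPM in knockout libraries, a blocked value of -0.37 (SE 0.14, adjusted p = 0.218 by edgeR).

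The gene called higher was Lars2, the mitochondrial leucyl-tRNA synthetase. It stood at 76.2, 97.5 and 136 CPM in control and 157, 106 and 271 CPM in knockout libraries, so the groups overlapped, and it was higher in each pair. The blocked log2 fold change was 0.70 (SE 0.15, adjusted p = 0.0355 by edgeR). The call was lost without the libraries numbered 1 (adjusted p = 0.0684 by edgeR) or 3 (adjusted p = 0.163 by edgeR) and with DESeq2 (adjusted p = 0.226). Of the 9 regulators examined, 0 passed, where edgeR with the block called 2.23% of all tested genes lower and 1.57% higher. Esrra, a nuclear receptor of energy metabolism genes, stood at 32.8, 28.5 and 26.7 CPM in control and 24.2, 24.3 and 23.3 CPM in knockout libraries (blocked log2 fold change -0.32, SE 0.09, adjusted p = 0.0956 by edgeR), and Yy1 had a blocked value of -0.14 (adjusted p = 0.125 by edgeR).

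The 2 most similar gene groups, the cytosolic ribosomal proteins and the nuclear genes of the respiratory chain, had medians of like size but some called members. With the block, 13 of 81 tested cytosolic ribosomal protein genes fell and 0 rose, against 2.23% and 1.57% of all tested genes, with a median of -0.10 and 75 below 0. Of 87 tested respiratory chain genes 4 fell and 0 rose, against the same background of 2.23% and 1.57%, with a median of -0.08 and 66 below 0. Without the block 0 were called in both groups, where edgeR called 0% of all tested genes. Rpl13 averaged 346 ± 14.5 CPM over the controls, against 286 ± 13.8 CPM over the knockouts (SD, n = 3), with a blocked value of -0.30 (SE 0.04, adjusted p = 0.00907 by edgeR). Cox5b, a subunit of cytochrome c oxidase, stood at 58.9 ± 1.92 CPM and 47.8 ± 1.55 CPM (SD, n = 3), with a blocked value of -0.33 (SE 0.06, adjusted p = 0.0262 by edgeR). The blocked fold changes of Rpl13, Cox5b, Mrpl52 and Mrps34 were of like size, and their standard errors were 0.04, 0.06, 0.09 and 0.10. Whether the mitochondrial ribosomal protein genes differ from these groups was not tested.

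**Figure D5:**
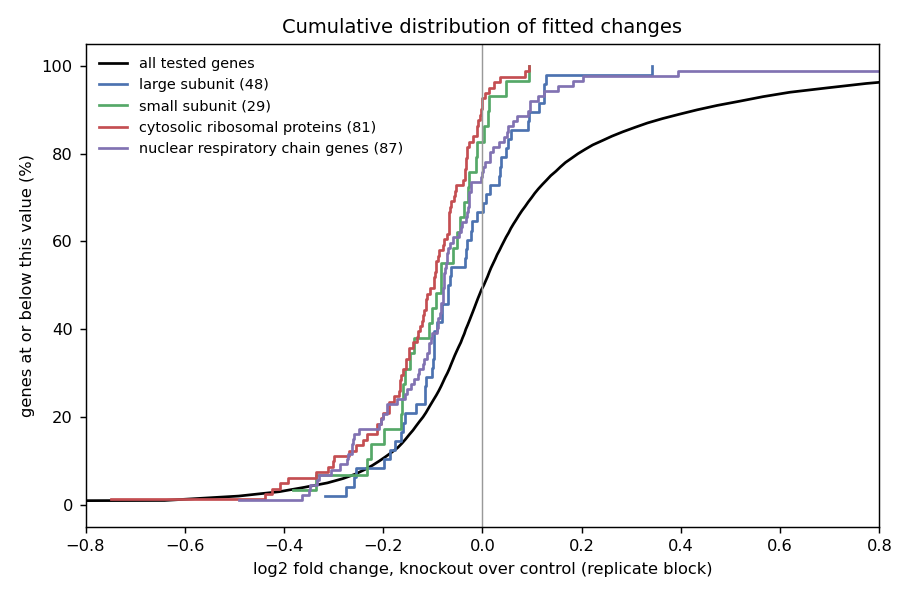
Share of genes (percent, vertical axis) at or below each fitted log2 fold change with the replicate block, shown from -0.8 to 0.8, for all 15906 tested genes, large and small subunit mitochondrial ribosomal protein genes, cytosolic ribosomal proteins and nuclear respiratory chain genes. The curves of the 4 groups rise more steeply than that of all genes and cross the middle slightly below 0.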

How the data were processed

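Strand-marking (dUTP) poly(A) libraries were read from both ends, per the labels' protocols. The deposited values are raw counts per gene symbol. Per the submitters' processing notes, DESeq2 1.26.0, HTSeq 0.12.4, HISAT2 2.2.1 and the mm10 build are named without their roles, with an annotation and strand setting not given in the sources used here. Entries that name no gene were left out of totals and tests; together they held 28.7% of read pairs in control and 30.7% in knockout libraries.

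From the counts, CPM was computed over genes, and edgeR 4.0.16 was fitted to all genes passing filterByExpr, with TMM factors, the quasi-likelihood test (two-sided) and Benjamini-Hochberg adjustment at 0.05. Same-numbered libraries were treated as pairs because their deviations correlated at 0.751 or more across genes, while the labels do not say what a number marks, so fits with the replicate block are given too. Alternatives were DESeq2 1.42.0, limma 3.58.1 (voom), other scalings and filters, corrections in 20 bins of GC content or length, and left-out libraries. Tests were tested on simulated data. Lengths and coordinates came from GENCODE on GRCm38, with 77 of 77 members matched by symbol. Members and lists were chosen with earlier results of these data known.

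Named were Prrc2b, called members, the 8 members of each subunit with the smallest blocked p, the 3 highest and 3 lowest levels per length, the Mrps18 trio, members with separated groups, and up to 3 genes of each other list by blocked p. Mrps28, Mrpl44, Mrpl45, the neighbours and the genes with pseudogenes were named after their values were seen.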

Additional observations from a re-analysis of the deposited data

Results flagged for a closer look

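Read pairs outside the gene counts were more frequent in the knockout group, with no overlap between the groups. They made up 30.7% ± 0.613 of pairs in knockout and 28.7% ± 0.870 in control libraries (SD, n = 3). Pairs in no annotated gene made up 20.8% and 19.7%, pairs of too low alignment quality 3.83% and 3.11%, and unaligned pairs 1.25% and 1.03%. Each difference had a two-sided exact permutation p of 0.1, the smallest that 3 against 3 libraries can give. The permutation did not use the pairing of same-numbered libraries. The part of these shares in the values of the mitochondrial ribosomal protein genes was not tested.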

How the results depend on the processing

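Across 29 settings 0 large subunit genes were called, and 1 small subunit gene (Mrps34) was called lower in 1 setting, the replicate block with no filter. In that setting edgeR called 2.76% of 20148 genes lower. In the main fit with the group alone edgeR called 0% of all tested genes, so 0 called members there is not particular to them. With the replicate block 1 other gene of mitochondrial translation (Lars2) was called higher, also under each other scaling, no filter, limma-voom, GC and length correction and without replicate 2, and 0 in the other settings. The blocked edgeR fit called 1.57% of all tested genes higher. The large subunit median of -0.069 became -0.042 with library totals, -0.044 with upper quartile scaling and -0.049 with a floor of 5 CPM on the mean, and with the replicate block -0.041, -0.042 and -0.048. Leaving out 1 library gave -0.091 to -0.032, and leaving out pair 1, 2 or 3 with the replicate block -0.050, -0.047 and -0.059. The small subunit median of -0.090 became -0.062 with library totals and -0.064 with upper quartile scaling, and with the replicate block -0.057, -0.058 and, with the 5 CPM floor, -0.064. Leaving out 1 library gave -0.119 to -0.053, and leaving out pair 1 with the replicate block -0.066. The large subunit ratio of sums, 0.986, was 0.968 with TMM, 0.969 with DESeq2 size factors and 0.956 from the median member, and 0.966 to 1.002 with a library left out. The small subunit ratio, 0.950, was 0.896 from the median member and 0.922 to 0.977 with a library left out. Mrps18c turned to 0.011 with library totals, 0.012 with upper quartile scaling, 0.0048 with the 5 CPM floor and 0.021 with length correction, with the replicate block to 0.015, 0.014, 0.0079 and 0.024, and to 0.089 and 0.010 without pair 1 or 3. With 1 library left out it ranged from -0.074 to 0.077, Mrps18a from -0.089 to 0.115 and Mrps18b from -0.116 to 0.0057, and Mrps18a was -0.051 without pair 2 with the replicate block. The causes were not tested. Each group had 3 libraries and each member at least 162 counts in every library, and the intervals given above show the size of change that these limit.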
